A study of Mus musculus with 2 samples.

Results

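The mouse miRNAs miR-6896 to miR-7094 form a run of consecutive names given to hairpins that were annotated together. Their 5p arms were taken from the array by name, as every mouse miRNA numbered within that run, with or without a letter or a copy number after it, that ends in 5p. There were 201 such 5p arms among the 1881 mouse miRNAs of the array, and 199 3p arms carried names of the same run. No measured value entered this choice. LLC cells, the mouse Lewis lung carcinoma cell line, were cultured with no treatment named in the labels, and exosomes were collected from the supernatant by ultracentrifugation in a medium with exosome-free serum. The RNA of these LLC-derived exosomes was labelled with Cy3 and hybridized to 2 Agilent mouse miRNA microarrays, here called replicate 1 and replicate 2. The sample labels name a kit for RNA from blood and a protocol for amplified cRNA, whereas the methods name the array maker's miRNA protocol, so how the RNA was prepared and labelled is uncertain. Both arrays belong to the same group, so no difference between groups was tested and no p-value is given. Nothing in the sample labels says that the replicates came from separate cultures, so the spread between them may be technical.

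A miRNA hairpin usually gives a mature strand from each of its arms, 5p and 3p, and 1 of the strands is loaded into an Argonaute protein. Bases 2 to 8 of the loaded strand, the seed, pair with target mRNAs. Most hairpins are cut from a longer transcript by Drosha, whereas a mirtron is a short intron whose ends are set by the spliceosome. A mirtron therefore tends to begin near the GU of the 5' splice site and to end on the AG of the 3' splice site. In mammals the 5p arm of a mirtron is often rich in G and the 3p arm, which holds the pyrimidine tract of the intron, is rich in C and U.

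RefSeq with the assembly GRCm38.p6 held the mature sequence of 177 of the 201 5p arms. The following 5p arms are shown because they had the highest signal of the run in the exosomes, in the order of that signal. miR-7042-5p, which lay between miR-7045-5p and miR-6908-5p, is missing from the list because it had no mature sequence there. In every sequence the seed is in capitals and the rest in lower case.
miR-7036a-5p: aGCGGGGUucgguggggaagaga
miR-6931-5p: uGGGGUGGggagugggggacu
miR-7082-5p: uACGGGCAggaggaggggagg
miR-6984-5p: aCUGAAAGgcaaugaaggaggagc
miR-7011-5p: aGGAGGAUgggagagggaggugu
miR-7020-5p: uGGGAUGGuggagagggugaccag
miR-6973b-5p: gUAGGUAUggggagaggacaggga
miR-7045-5p: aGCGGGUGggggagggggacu
miR-6908-5p: uUGCCUGUcagggagagcccca
miR-6918-5p: uGCUGAGGacgggauuagguucu
miR-6937-5p: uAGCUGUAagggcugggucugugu

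The next set is shown because its members share a seed and can be read against each other. miR-6965-5p and miR-7047-5p have the same seed and were both detected. miR-7005-5p was detected and miR-6975-5p, with the same seed, was not. The same holds for miR-7030-5p against miR-7075-5p and miR-7076-5p.
miR-6965-5p: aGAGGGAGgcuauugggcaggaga
miR-7047-5p: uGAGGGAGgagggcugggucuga
miR-7005-5p: cCUGGGGAugggaggaccagca
miR-6975-5p: gCUGGGGAgaaagggguuuggca
miR-7030-5p: uGGGGAGGuggcugugcuaguc
miR-7075-5p: cGGGGAGGaggacaugguuuu
miR-7076-5p: aGGGGAGGugguauggucuca

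The 3p arms of miR-7045, miR-7047 and miR-7082 are shown because they were the only 3p arms detected on both arrays together with their 5p arm.
miR-7045-3p: uCUCCCCCcucccccgcacag
miR-7047-3p: uCACCCUCacccuuccuccuucc
miR-7082-3p: gCCCCCCUugcugucugucucc

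The hairpin of miR-7036a, with the highest 5p signal, lies at chr5:137296624-137296688 on the minus strand (GRCm38.p6) and is given below with both arms in capitals. Its last bases are CAG.
miR-7036a hairpin: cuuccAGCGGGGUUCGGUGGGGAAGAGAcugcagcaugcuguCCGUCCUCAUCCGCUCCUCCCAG

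Each array held 4415 probes for miRNAs, and the 201 5p arms had 412 of them, with 2 probes for 191 arms and 3 probes for 10 arms. A probe was printed as 10 or 15 spots. The scanner software, Feature Extraction, gave each spot a fluorescence intensity with the background subtracted and each miRNA a detection call. A level is the log2 of the signal over the 75th percentile of the 393 probes detected on both arrays, at 50.2 (replicate 1) and 39.95 (replicate 2) units of intensity. A level of 0 is thus a signal at that percentile. Probes differ in how well they bind, so the order of levels is an order of signals and not of RNA amounts. Among the 5p probes the dimmest called detected had an intensity of 9.59, and the brightest of an arm detected on neither array 9.41. The negative control spots reached 9.45 on replicate 1 and 9.35 on replicate 2, so the call lay close to the brightest of them.

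Of the 201 5p arms, 30 were detected on both arrays, which was 14.9%, against a background of 11.5% over all 1881 miRNAs and 11.1% over all miRNAs other than these arms. The 3p arms of the same run were detected in 17 of 199 cases (8.54%), and other miRNAs named as 5p arms in 70 of 574 cases (12.2%). On replicate 1, 40 of the 5p arms were detected (19.9%), where the background was 13.5%. On replicate 2 there were 30 (14.9%) against a background of 11.9%. All 30 detected on replicate 2 were also detected on replicate 1, and 10 were detected on replicate 1 only. The remaining 161 were detected on neither array, and their amounts are therefore not ordered here.

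The share depended on the call. Under the looser rule that 50% of the spots of a probe be positive and significant against the background, 63 of the 5p arms passed on both arrays (31.3%, background 25.4%), and so did 66 of the 3p arms (33.2%). The 5p arms were then no more frequent than the 3p arms. Under the stricter rule that 50% of the spots be well above background, 21 of the 5p arms passed (10.4%, background 7.07%) against 8 of the 3p arms (4.02%). The members made up 13.9% of the 216 miRNAs detected on both arrays. Of the summed signal of all detected probes they gave 5.55% on replicate 1 and 4.14% on replicate 2. Without miR-6931-5p these shares were 4.03% and 3.96%.

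The 30 detected 5p arms had levels from -6.69 to 2.04, with a median of -1.08. The median over all 216 detected miRNAs was -1.46 and over the detected 3p arms of the run -1.74. Of the 30 arms, 10 lay among the 54 highest of the 216 detected miRNAs and 0 lay among the 10 highest of the array. The level exceeded 0 in 7 of the 30 arms on average and in 6 on both arrays. Of all 216 detected miRNAs, 43 exceeded 0 on average. The 5p arms of the run were thus spread through the range below the brightest miRNAs, as the plot of levels by array shows.

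**Figure D1:**
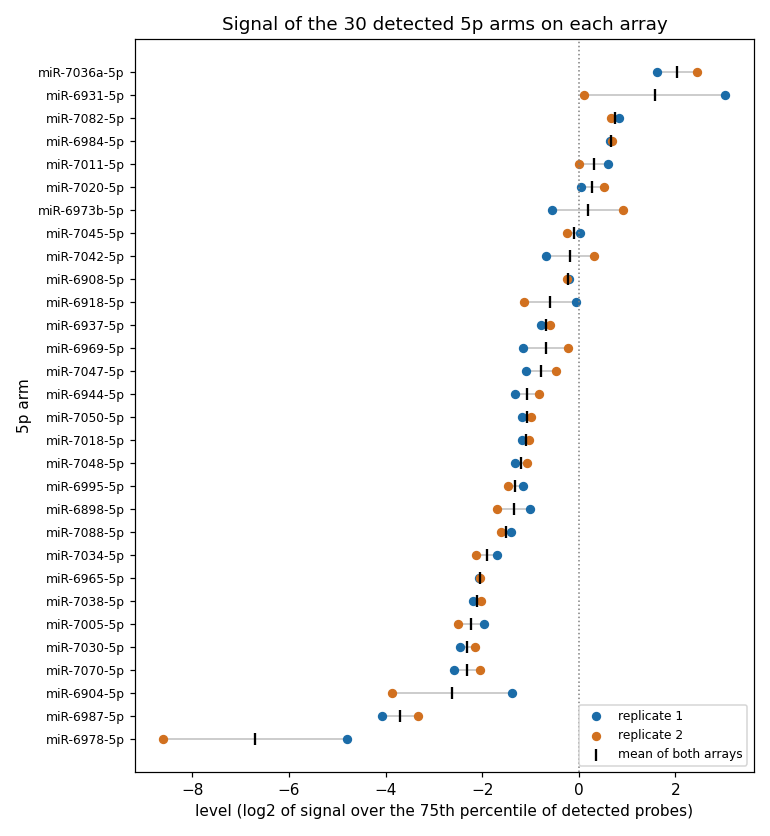
Level of the 30 5p arms detected on both arrays, as log2 of the signal over the 75th percentile of the 393 probes detected on both arrays (horizontal axis), with 1 row for each arm. Blue points are replicate 1, orange points replicate 2 and black ticks their mean. Levels ran from -6.69 to 2.04 on average, and miR-6978-5p, miR-6931-5p and miR-6904-5p had the widest gaps between the arrays.

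miR-7036a-5p had the highest mean level, 1.62 on replicate 1 and 2.45 on replicate 2 (2.04 ± 0.59, SD, n = 2), and rank 15 among the 216 detected miRNAs. Its probes had intensities of 176 and 136 on replicate 1 and of 253 and 189 on replicate 2, so both probes were brighter on replicate 2. The hairpin lies in Srrt, which encodes a nuclear protein that acts with the cap-binding complex in RNA processing.

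miR-6931-5p had levels of 3.03 and 0.11 (1.57 ± 2.07, SD, n = 2), and its rank was 12 on replicate 1 and 41 on replicate 2. One probe had an intensity of 357 ± 9.94 over 15 spots on replicate 1 and of 35.4 ± 3.14 over 15 spots on replicate 2, which was 10.1 times lower. The other probe had 473 ± 21.8 and 53.3 ± 6.58, which was 8.87 times lower. The spread between the spots of a probe was far smaller than this gap, and both probes moved alike. Among the 141 miRNAs with every probe detected on both arrays, the difference of -2.92 (replicate 2 minus replicate 1) was the largest, followed by that of miR-6973b-5p. The cause of the difference was not tested, and the place of miR-6931-5p among the arms rests on replicate 1.

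miR-7082-5p had levels of 0.84 and 0.67 (0.76 ± 0.12, SD, n = 2). miR-6984-5p had 0.64 and 0.69 (0.67 ± 0.03, SD, n = 2). The arrays differed by -0.16 and 0.05 (replicate 2 minus replicate 1), and the ranks were 29 and 31. miR-6984-5p was among the highest arms although only 37.5% of its bases are G.

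miR-7011-5p had levels of 0.60 and 0.01 and miR-7020-5p of 0.04 and 0.52. Their means, 0.31 ± 0.41 and 0.28 ± 0.33 (SD, n = 2), differed by less than either spread. miR-6973b-5p had -0.55 and 0.92 (0.18 ± 1.04, SD, n = 2), and its probes went from 26.8 and 44.2 on replicate 1 to 69.5 and 82.2 on replicate 2. It therefore changed in the direction opposite to miR-6931-5p, with both probes again moving alike.

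Around the 75th percentile followed miR-7045-5p (0.03 and -0.25), miR-7042-5p (-0.67 and 0.31) and miR-6908-5p (-0.19 and -0.25). Just below lay miR-6918-5p (-0.06 and -1.14) and miR-6937-5p (-0.78 and -0.59). The order among these arms is not settled, since neighbouring means were closer than the gap between the arrays for most of them. The hairpin of miR-7045 lies in Chd4, which encodes a chromatin remodeller of the NuRD complex.

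miR-7005-5p, which the text of the study names, had levels of -1.95 and -2.50 (-2.23 ± 0.39, SD, n = 2) and rank 176 of 216. One of its probes was detected, with intensities of 20.2 and 10.1. The other was not detected on either array, with 9.18 and 5.91. The brightest negative control spots had 9.45 on replicate 1 and 9.35 on replicate 2. The detected probe thus lay well above them on replicate 1 and just above on replicate 2. The undetected probe lay below them on both arrays, but above the median negative control spot, at 0.62 on replicate 1 and 0.74 on replicate 2. A probe value is a mean over spots, whereas the brightest controls are single spots. Its hairpin lies in Lama5, which encodes a laminin chain.

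The lowest mean levels belonged to miR-6978-5p (-6.69 ± 2.69), miR-6987-5p (-3.71 ± 0.53) and miR-6904-5p (-2.62 ± 1.75, SD, n = 2 each). In each of them 1 probe was much brighter than the other, although both probes of miR-6904-5p were detected on replicate 1. For miR-6978-5p, 1 probe had intensities of 42.4 and 23.1 and the other 0.996 and -1.77, so the low mean reflects the dim probe. For miR-6904-5p the brighter probe had 40.3 and 14.4 and the dimmer one 9.73 and 2.34. Each of these arms would stand higher if the brighter probe alone were taken.

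Over the 30 detected arms the levels on the arrays correlated with a Pearson r of 0.81 and a Spearman rho of 0.88. These are correlations across miRNAs that share the arrays and the scaling, and the miRNAs are not independent replicates. For the 22 arms with every probe detected on both arrays, r was 0.69, and it was 0.87 for all arms but miR-6931-5p. The median absolute difference between the arrays was 0.49 for the arms and 0.35 for all 216 detected miRNAs. More than 1 log2 unit separated the arrays for 5 arms (16.7%) and for 29 of all detected miRNAs (13.4%). The 5 were miR-6978-5p (-3.81), miR-6931-5p (-2.92), miR-6904-5p (-2.48), miR-6973b-5p (1.47) and miR-6918-5p (-1.08), as replicate 2 minus replicate 1. For miR-6978-5p the value rests on a probe at background, with a mean intensity of -1.77 on replicate 2, where its negative spots took the lowest positive value, while its detected probe had levels of -0.26 and -0.80. For miR-6904-5p 1 probe fell below the detection call on replicate 2, whereas the other 3 had every probe detected. Of the 30 arms, 17 were higher on replicate 2 and 13 on replicate 1. Of all 216 detected miRNAs, 143 (66.2%) were higher on replicate 2.

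**Figure D2:**
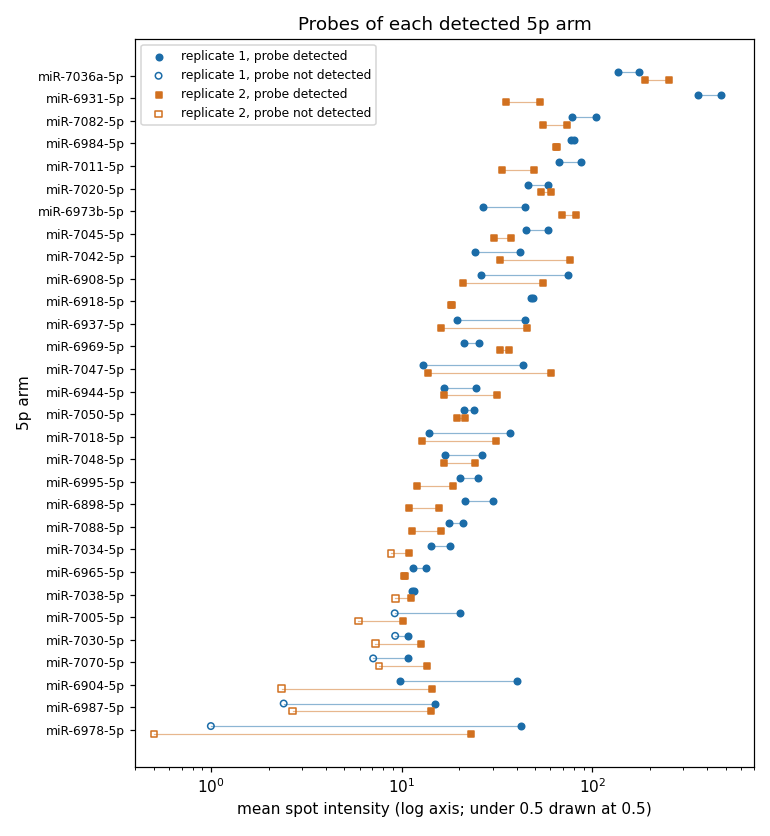
Mean spot intensity of both probes of each 5p arm detected on both arrays, on a log axis, with replicate 1 as blue circles and replicate 2 as orange squares. Filled symbols are detected probes, open symbols undetected ones, lines join the probes of an arm, and values under 0.5 are drawn at 0.5. The 8 arms with an open symbol lie at the lower end, and the probes of miR-6931-5p fall together from 357 and 473 to 35.4 and 53.3.

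Of the 30 arms, 22 had all of their probes detected on both arrays and 8 did not. Where all probes of an arm were detected, the brightest exceeded the dimmest by a median factor of 1.34, with a range from 1.002 to 4.42. The widest gap was that of miR-7047-5p on replicate 2, whose probes had 13.7 and 60.6. On replicate 1 they had 12.9 and 43.0, so the same probe was the brighter on both arrays. miR-6937-5p showed a like split, with 19.6 and 44.0 on replicate 1 and 16.1 and 45.4 on replicate 2. These arms share a run of 13 bases, the longest run that miR-6937-5p shared with any miRNA of known sequence on the array. Whether a probe of one also binds the other was not tested.

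The 10 arms detected on replicate 1 only were miR-6905-5p, miR-6938-5p, miR-6939-5p, miR-6980-5p, miR-7025-5p, miR-7032-5p, miR-7040-5p, miR-7044-5p, miR-7055-5p and miR-7080-5p. The brightest was miR-6980-5p, with probes at 10.4 and 21.4 on replicate 1 and at 3.76 and 8.26 on replicate 2. miR-7025-5p, by contrast, had 7.45 and 9.59 on replicate 1 and 8.37 and 7.72 on replicate 2, which is nearly the same signal on either side of the call. Over the whole array, 37 miRNAs were detected on replicate 1 only and 7 on replicate 2 only, so the direction was the same as for the arms. The 5p arms of the run made up 10 of these 37 and 0 of these 7. With 201 of the 1881 miRNAs of the array, they gave more than their share of the 37. The cause of this was not tested.

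Both arms of a hairpin could be compared for 198 hairpins. In 27 of them the 5p arm was detected on both arrays and the 3p arm on neither, and in 11 it was the reverse. In 3 more hairpins, those of miR-6980, miR-7055 and miR-7080, the 3p arm was detected on both arrays and the 5p arm on replicate 1 only. For 146 hairpins neither arm was detected on any array.

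Both arms were detected on both arrays in 3 hairpins. For miR-7082 the 5p arm had levels of 0.84 and 0.67 and the 3p arm of -1.35 and -1.07. For miR-7045 the 5p arm had 0.03 and -0.25 and the 3p arm -2.32 and -2.12. For miR-7047 the 5p arm had -1.10 and -0.48 and the 3p arm -1.69 and -0.79. The 5p arm was higher on both arrays in all 3, although the probes of the arms differ in sequence and their binding was not compared. For miR-7047 the mean levels of the arms, -0.79 ± 0.44 and -1.24 ± 0.64 (SD, n = 2), differed by less than the larger spread.

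**Figure D3:**
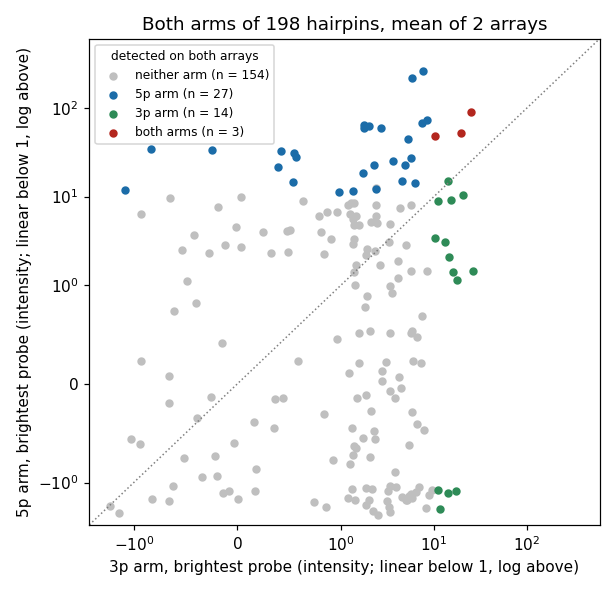
Intensity of the brightest probe of the 5p arm (vertical axis) against that of the 3p arm (horizontal axis) for 198 hairpins, as the mean of both arrays, on axes that are linear below 1 and logarithmic above. Colours give the arm detected on both arrays, and the dotted line marks equal intensity. The 3 hairpins with both arms detected, in red, lie above the line, as do the 27 with the 5p arm alone, in blue. The detection call nearly follows intensity, so a hairpin with 1 detected arm lies on the side of that arm by the sorting itself. The place of the 27 is therefore no separate result.

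The sequences of the detected and undetected 5p arms differed in their share of G. In the 29 detected arms with a sequence, 51.2% ± 8.79 of the bases were G (mean ± SD over arms), against 42.7% ± 8.16 in the 141 arms detected on neither array and 27.9% over all 1608 miRNAs with a sequence. The share of C was 10.44% in the detected arms and 15.05% in the undetected ones. The 3p arms of the run held 15.7% G and 40.1% C. Members are not replicates of a condition, so these are descriptions of the lists.

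The share detected increased with the number of G bases, in classes chosen after the values were seen. With 13 to 17 G bases, 11 of 19 arms were detected (57.9%). With 11 or 12 it was 8 of 45 (17.8%), with 9 or 10 it was 8 of 70 (11.4%), and with 7 or 8 it was 2 of 34 (5.88%). With up to 6 it was 0 of 9. The other miRNAs of the array ran the same way, from 74 of 947 (7.81%) with up to 6 G bases to 10 of 15 (66.7%) with 13 to 17. In each of these 5 classes the detected share of the 5p arms was below that of the other miRNAs, while over all classes together it was above it. The arms of the run hold more G than the rest of the array, and a part of G content in the signal of the probes was not tested.

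**Figure D4:**
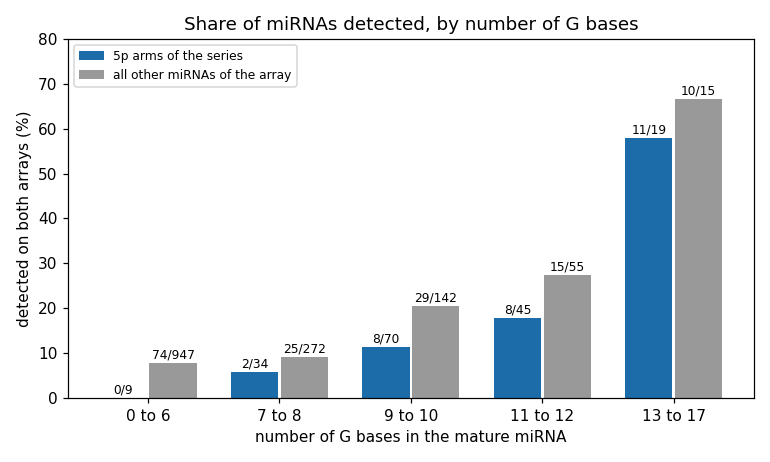
Percent of miRNAs detected on both arrays (vertical axis, from 0) by the number of G bases in the mature sequence, for the 5p arms of the run (blue) and for all other miRNAs with a sequence (grey). Numbers above the bars are detected over all miRNAs in the class. In both groups the share was highest with 13 to 17 G bases, at 57.9% and 66.7%.

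The extra G bases of the detected arms lay mostly beyond the seed. In bases 2 to 8 the share of G was 55.7% ± 16.8 in the detected arms and 53.5% ± 15.7 in the undetected ones. In bases 9 to 18 it was 56.6% ± 15.2 and 41.3% ± 12.2. At position 12, 65.5% of the detected arms and 39.0% of the undetected ones had G, and at position 17 it was 69.0% and 35.5%. Within the seed, the undetected arms had G more often at positions 3, 4, 6 and 7. The detected arms did at position 2 (44.8% against 41.8%), position 5 (75.9% against 61.7%) and position 8 (65.5% against 39.0%). These stretches were also chosen after the positions had been seen.

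**Figure D5:**
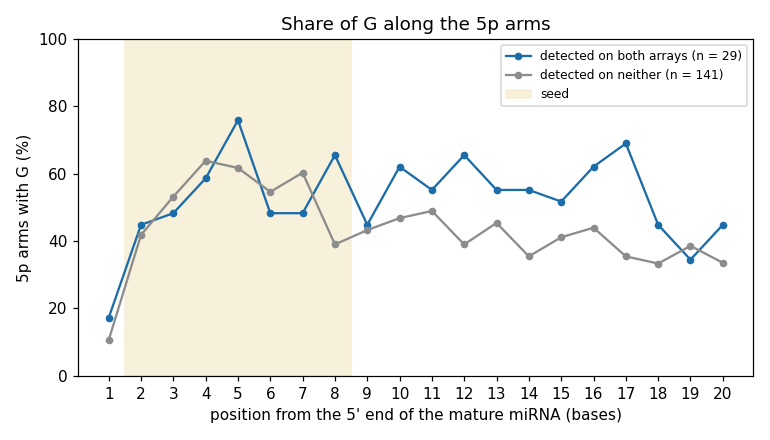
Percent of 5p arms with G at each position from the 5' end, for 29 arms detected on both arrays (blue) and 141 detected on neither (grey), with the seed shaded. Within the seed the lines cross, and from position 10 to 18 the detected arms lie above, with 69.0% against 35.5% at position 17.

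Motifs were searched on the mature strand alone, and matches of different motifs may overlap. A run of GGGG was present in 17 of the 29 detected arms (58.6%), in 50 of the 141 undetected ones (35.5%) and in 11.3% of all miRNAs with a sequence. GGAG, a short motif described in miRNAs that the RNA-binding protein hnRNPA2B1 sorts into exosomes, was present in 21 of 29 detected arms (72.4%), in 59 of 141 undetected ones (41.8%) and in 14.4% of all. A match says only that the letters are there, and sequences rich in G hold both motifs more readily. Within the 29 detected arms, the share of G and the level had a Pearson r of 0.16 and a Spearman rho of 0.24. These cover only arms that passed the detection call, so they cannot be set against the difference between detected and undetected arms. miR-6908-5p, with 31.8% G, had a higher level than 20 of the other detected arms.

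The 177 arms with a sequence had 156 distinct seeds, of which 18 were shared by 39 arms. A detected arm was present in 6 of the shared seeds. In 5 of them the other members were not detected. miR-7005-5p was detected and miR-6975-5p was not, and the same held for miR-7030-5p against miR-7075-5p and miR-7076-5p, for miR-7034-5p against miR-7071-5p, for miR-6904-5p against miR-6914-5p and for miR-7070-5p against miR-6927-5p. The seed GAGGGAG alone had 2 detected arms, miR-6965-5p at -2.07 and -2.04 and miR-7047-5p at -1.10 and -0.48. The detected arms of the run therefore carried almost as many seeds as there were arms.

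Some detected arms share long runs of bases with other miRNAs of the array. miR-7036a-5p shares 12 bases with miR-6769b-5p, whose level was 4.86. miR-7030-5p shares 11 bases with miR-1224-5p, whose level was 5.54. miR-7005-5p shares 13 bases with miR-23a-5p, and miR-7082-5p shares 12 with miR-6942-5p, and neither of these partners was detected. Binding of 1 miRNA to the probes of another was not tested.

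The hairpins of 180 of the 201 arms were found in RefSeq. Of these, 167 ended in AG (92.8%), against 8.61% of the 825 other hairpins of the table, and 27 started with GU (15%), against 6.06%. The median length was 66 bases, against 82 for the other hairpins. Of the 180 hairpins, 179 lay within the span of a protein-coding gene, against 473 of the 825 others, and the exception was miR-7094b-2. They lay on the strand of that gene in the 157 cases where the strand was known. Whether a hairpin filled a whole intron was not determined, since exons were not used here. Of the 29 hairpins of detected arms, 27 ended in AG (93.1%), against 133 of 143 for arms detected on neither array (93%).

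The genes around the detected arms had varied functions. miR-6931 (chr11:102999848-102999921, minus strand) lies in Dcakd, miR-7082 (chr9:21075497-21075588, minus strand) in Raver1, which encodes an RNA-binding protein, and miR-6984 (chr19:3288920-3288983, plus strand) in Mrpl21, which encodes a protein of the mitochondrial ribosome. miR-7011 (chr3:88440879-88440951, minus strand) lies in Sema4a, a semaphorin gene. miR-7020 (chr4:139644042-139644111, plus strand) lies in Aldh4a1, a mitochondrial aldehyde dehydrogenase gene of proline breakdown. miR-6904 (chr1:180587201-180587267, plus strand) lies in Parp1, a DNA repair gene, and miR-6978 (chr17:57217172-57217228, minus strand) in C3, the central complement gene. All positions are those of GRCm38.p6. The mRNAs of these genes were not measured here.

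Markers of other possible sources were looked up, where 11.5% of all 1881 miRNAs were detected on both arrays. None of 3 erythroid, 3 leukocyte, 5 epithelial miR-200 family and 1 liver miRNA was detected on both arrays. With so low a background, these absences do not check the label of the samples. miR-199a-3p and miR-214-3p, of mesenchymal cells, were both detected. Of 3 muscle miRNAs, miR-206-3p was detected. Of 3 miRNAs common in extracellular RNA, let-7a-5p and miR-21a-5p were detected and miR-16-5p was not. LLC is a carcinoma line. The miRNAs of the miR-200 family, which mark epithelial cells, were detected on neither array. Their levels, from -16.2 to -10.6, lie at background and have no order. No miRNA is specific to exosomes, so the array does not tell RNA inside the vesicles from RNA around them.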

How the data were processed

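The authors deposited the Feature Extraction 10.7.1.1 output of each array, with the intensity of every spot after background subtraction and no normalization between arrays. The submitters' notes name version 9.1. The log2 table that the authors deposited holds values whose scale and centring stay unknown. It was used as an alternative only. The median of both of its columns was -3.32.

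Control and outlier spots were left out. Intensities were scaled to the 75th percentile of 393 probes, those detected on both arrays. Values of 0 or less took the lowest positive value, and log2 followed. Spots were averaged per probe, then probes per miRNA. Detection of a probe required a total over 3 errors, and that of a miRNA the software's own call. The number of arrays limits the precision. With 1 group of 2 arrays no test was run.

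The members were taken by name, with no measured value in the rule. The run itself and the lists were chosen with earlier results of these data known. Named are the 12 highest arms, miR-7005-5p and miR-7036a-5p, the 5 with the largest array difference, the 3 lowest, up to 6 detected on 1 array, and arms that share a seed with a detected one. Other arms named were chosen after their values were seen. Python 3.11.15, pandas 2.3.3, numpy 2.4.6, R 4.3.3 and limma 3.58.1 (normexp, offset 50) were used. The computation was tested on simulated data. Other detection calls, scalings, background corrections and probe summaries, the log2 table, unfiltered arms and single replicates were the alternatives.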

Additional observations from a re-analysis of the deposited data

How the results depend on the processing

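No paired analysis was possible because both arrays belong to 1 group. With spots positive and significant, 63 arms passed, their median level was -2.97, 21 lay in the highest 25%, the 5p arm was above the 3p arm in 15 of 20 hairpins and the mean share of G was 48.9%. With spots well above background, the median was -0.60 and 4 lay in the highest 25%. The median was 3.14 with the percentile over all probes, -0.35 with normexp, -0.60 with the brightest probe, -0.74 with the sum of detected probes, -0.97 with the total gene signal and 3.09 in the deposited table, where the 5p arm was above the 3p arm in 3 of 5 hairpins. With normexp the median absolute difference between arrays was 0.13. With the total gene signal 6 arms lay in the highest 25% and the Pearson r was 0.51. With no filter on dim miRNAs, the median was -12.3, 63 arms lay in the highest 25%, the 5p arm was higher in 77 of 198 hairpins, r was 0.94, the absolute difference 1.22 and the share of G 44.2%. Levels at background have no order, so these last values give no direction. The percentile over all probes changes only the value by which signals are divided, and normexp adds an offset of 50. Levels in these settings are therefore on another scale than the main ones. The cause of the other shifts was not tested. Arms detected on at least 1 array had 50.2% G. Leaving out 1 replicate gave 30 to 40 detected arms, medians of -1.35 to -1.01, 10 to 12 arms in the highest 25%, 3 to 4 hairpins with the 5p arm above the 3p arm (3 of 3 without replicate 1, 4 of 6 without replicate 2), and 50.2% to 51.2% G. miR-7036a-5p had the highest level in every setting run except without replicate 2, where miR-6931-5p had 3.03. Signals near the negative controls limit what can be said of the arms not detected.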

Other observations

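The total signal that Feature Extraction gave for an arm exceeded the sum of its own detected probes by over 1% for 9 of the 40 arms detected on replicate 1 and for 7 of the 30 detected on replicate 2. The largest ratios were 11.6 for miR-6987-5p on replicate 1 and 40.5 for miR-7038-5p on replicate 2. For miR-7038-5p on replicate 2 the total was 96.1 units and its own detected probe gave 2.38. That 2.38 and the 93.8 units of miR-7036a-5p on the same array together make up the total. Likewise, the total of 36.5 for miR-6987-5p on replicate 1 equalled its own 3.16 and the 33.4 of miR-6984-5p. Why the totals were raised was not tested. For the other arms total and probes were equal to within 1%. Because of the raised totals, levels here were taken from the probes.

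In the deposited log2 table, all 30 arms detected on both arrays lay above the lowest value in both columns, as did 5 of the 10 detected on replicate 1 only and 2 of the 161 detected on neither. The lowest value, -3.32, was also the median of each column.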
